A study of Mus musculus with 20 samples.

Results

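The transcripts of 10 organic anion transporters were followed in mouse liver: 5 members of the Slco family (Slco1a1, Slco1a4, Slco1b2, Slco2a1 and Slco2b1) and 5 of the Slc22 family (Slc22a7, Slc22a26, Slc22a27, Slc22a28 and Slc22a30). They were taken by symbol from the 36106 genes of the deposited count table, and all 10 were among the 16164 genes with enough reads to be tested. The livers came from male mice that were operated on and then kept for 2 weeks in 1 of 2 atmospheres. Sham_Nx mice had a sham operation and normoxia (4 livers, mouse 1 of this group not analysed here), Sham_IH mice a sham operation and intermittent hypoxia (5 livers), ORX_Nx mice orchiectomy and normoxia (5 livers), and ORX_IH mice orchiectomy and intermittent hypoxia (5 livers). Orchiectomy is removal of the testes, which make most of a male's testosterone, and intermittent hypoxia repeatedly lowers the oxygen of the inhaled air. Strain, age and the hypoxia schedule are not given in the sources used here, hormone replacement is not mentioned there, and 1 library was made per mouse.

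The Slco genes encode organic anion transporting polypeptides, which carry bile salts, conjugated steroids, thyroid hormones, prostaglandins and many drugs into cells without using the sodium gradient. The Slc22 family holds the organic anion and organic cation transporters, and rodents carry an expanded row of its organic anion branch next to one another on 1 chromosome. Hepatocytes take up anions from portal blood through both families. Part of this uptake differs between male and female rodents: the pituitary releases growth hormone in pulses in males and more steadily in females, and the transcription factor STAT5 passes that pattern on to sex-biased liver genes.

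The 4 Slc22 genes that lie near one another moved in different directions, so the 250 bases before their start sites are printed first, 5′ to 3′ on the strand of the gene, from RefSeq on build GRCm38.p6 (the submitters' processing notes name GRCm39). On chromosome 19 the coding genes Slc22a19, Slc22a26, Slc22a27, Slc22a28, Slc22a29, Slc22a30, Slc22a8 and Slc22a6 follow one another. In the first pair of sequences, capitals mark the bases that differ between Slc22a28 (chr19:8131983-8132232, minus strand) and Slc22a30 (chr19:8405106-8405355, minus strand). Of 244 aligned bases, 238 were identical and 6 were substituted, with the start sites offset by 6 bases. In the second pair, Slc22a26 (chr19:7802668-7802917, minus strand) and Slc22a27 (chr19:7966028-7966277, minus strand), capitals mark a match to the STAT5 core TTCNNNGAA, searched on both strands.
Slc22a28: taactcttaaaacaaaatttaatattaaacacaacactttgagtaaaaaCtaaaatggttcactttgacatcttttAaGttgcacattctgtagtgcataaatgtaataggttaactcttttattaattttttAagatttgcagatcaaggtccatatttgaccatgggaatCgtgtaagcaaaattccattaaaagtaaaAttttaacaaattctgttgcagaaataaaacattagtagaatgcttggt
Slc22a30: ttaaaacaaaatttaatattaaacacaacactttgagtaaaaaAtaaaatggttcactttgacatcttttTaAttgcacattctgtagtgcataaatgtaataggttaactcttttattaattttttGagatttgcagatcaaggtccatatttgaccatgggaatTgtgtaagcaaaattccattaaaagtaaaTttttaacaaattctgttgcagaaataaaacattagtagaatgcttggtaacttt
Slc22a26: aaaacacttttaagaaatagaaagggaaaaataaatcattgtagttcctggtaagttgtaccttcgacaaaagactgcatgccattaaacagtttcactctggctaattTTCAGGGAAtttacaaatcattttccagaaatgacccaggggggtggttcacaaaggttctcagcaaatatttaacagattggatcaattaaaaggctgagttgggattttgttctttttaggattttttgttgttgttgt
Slc22a27: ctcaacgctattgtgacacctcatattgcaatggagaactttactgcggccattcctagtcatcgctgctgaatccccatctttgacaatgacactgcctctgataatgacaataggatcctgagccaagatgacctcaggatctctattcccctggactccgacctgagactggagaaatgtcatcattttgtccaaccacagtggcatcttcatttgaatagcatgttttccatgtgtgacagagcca
Slc22a26 held the STAT5 core once, at position -141 from its start, and the other 3 sequences did not hold it. The core occurred in the 250 bases before the start of 7.02% of the 32851 RefSeq promoters, so a match is a description only. Slco1b2, which passed in no comparison here, held it as well, at -206, as did 1 of the 3 start sites of Slco2b1. The androgen receptor half-site TGTTCT, present in the same 250 bases of 16.1% of promoters, stood at -31 in Slc22a26 and was not found in the printed sequences of the other 3. RefSeq gave a promoter for 9 of the 10 genes.

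Read depth was 29.3 M to 69.6 M estimated counts per library, and levels are given as CPM, counts scaled to a common library total after correction by trimmed mean of M values. A count of 0 in the shallowest library would allow up to 0.102 CPM (3 counts, counting error only). The summed CPM of 10 hepatocyte genes came to between 8.41% and 13.1% of all counts in every library, so genes that define liver were abundant throughout. This sum did not overlap between Sham_Nx (92996 to 106720 CPM) and Sham_IH (115678 to 121851 CPM). Its part in the comparison of these groups was not tested. Some libraries stood apart by genes of other tissues or by acute phase genes: 15 skeletal muscle genes summed to 1306 CPM in ORX_IH 1, 767 in ORX_IH 2, 208 in Sham_Nx 2 and 46.4 in Sham_Nx 3, against 1.90 to 13.3 elsewhere. The sum of 14 pancreatic acinar genes reached 1569 CPM in Sham_IH 5, 649.97 in Sham_Nx 5 and 279 in ORX_IH 1, called the pancreas-high set here. Acute phase genes summed highest in ORX_Nx 4 and ORX_Nx 5, and ORX_Nx 5 had the lowest hepatocyte sum. In whole liver, fewer cells of a type and less RNA per cell cannot be told apart.

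Ordered by CPM per kilobase of transcript, the scale on which different genes can be compared, Slco1b2 led in every group, with a mean between 374 and 442 and a rank between 183 and 215 among the 16164 tested genes. In Sham_Nx it was followed by Slco1a1 (mean 112) and Slc22a30 (107.6), which did not differ beyond their spread. Slco2b1 stood next (45.02), then Slco2a1 (18.7) and Slco1a4 (15.9), whose values overlapped once spread was counted. Slc22a7 (8.07) and Slc22a28 (7.05) lay close together, and Slc22a27 (0.239) and Slc22a26 (0.194) came last. In ORX_Nx the order was different: Slc22a30 (88.7) and Slco1a4 (78.3) followed Slco1b2, Slco2b1 (43.9) and Slc22a26 (39.5) next, and Slco1a1 (4.67) had dropped to eighth. Slc22a26 thus moved from rank 13761 of the tested genes in Sham_Nx to rank 1789 in ORX_Nx, and Slco1a1 from rank 740 to rank 7726.

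**Figure D1:**
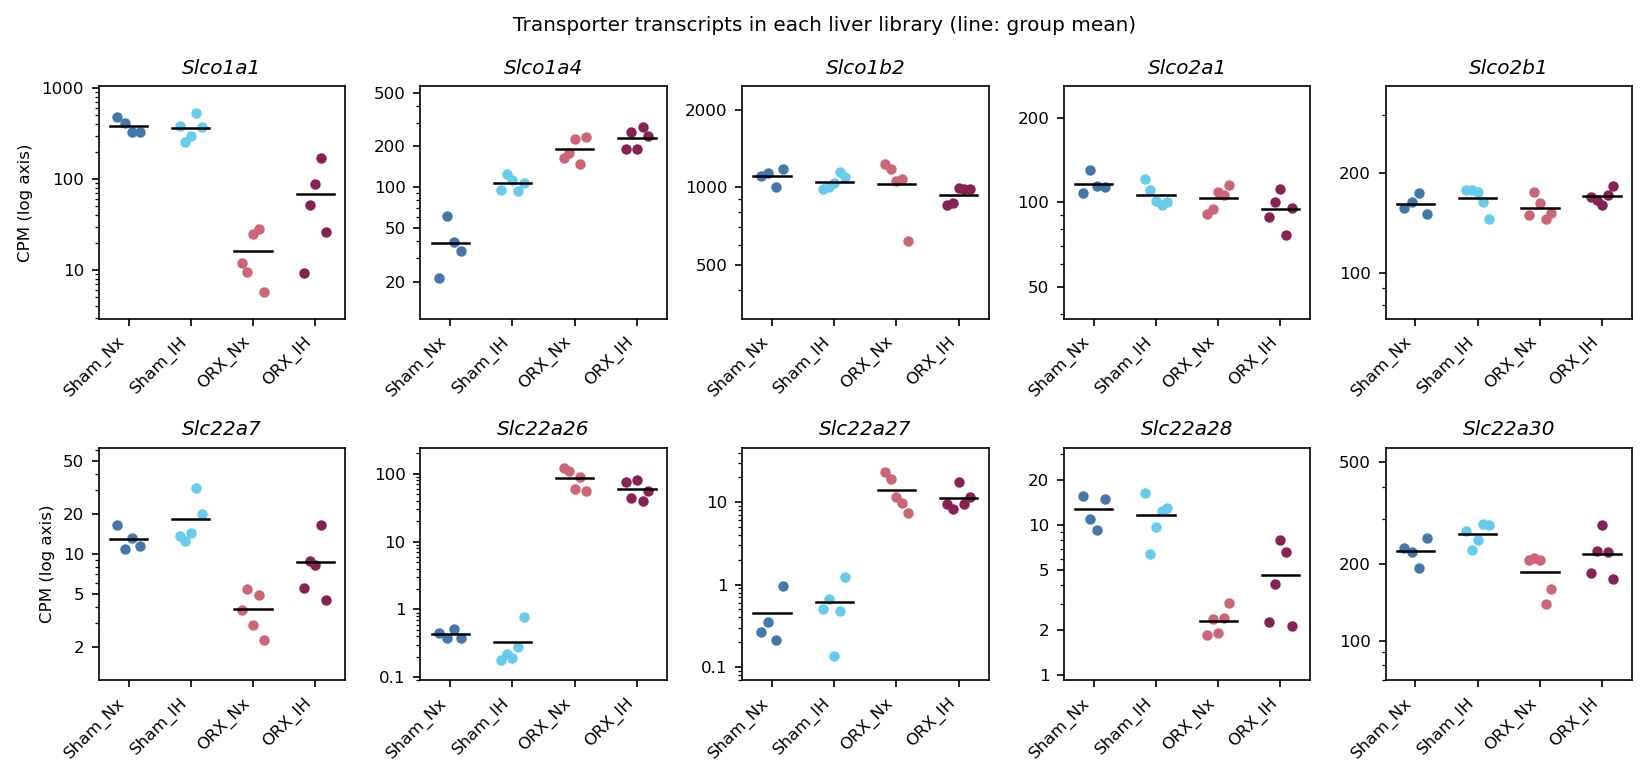
CPM of each transporter (log axis, a different range in each panel) in every library, with 1 point per mouse and a black line at the group mean. The 4 Sham_Nx and 5 Sham_IH points of Slc22a26 lie between 0.180 and 0.764 CPM and all orchiectomized points between 39.8 and 122.5 CPM, while the groups overlap for Slco1b2, Slco2a1 and Slco2b1.

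Orchiectomy in normoxia, the comparison of ORX_Nx with Sham_Nx, tests what removal of the testes did in the absence of hypoxia. Of the 10 transporters, 3 rose (Slco1a4, Slc22a26 and Slc22a27) and 3 fell (Slco1a1, Slc22a7 and Slc22a28), and the groups did not overlap for any of these 6. Over all tested genes, 14.3% passed the same test in this comparison, 7.88% upward and 6.46% downward (1274 and 1045 genes, but 2362 and 372 without scaling factors and 1543 and 756 with upper quartile scaling), and 12.3% had groups that did not overlap. A gene passed when the Benjamini-Hochberg adjusted p of edgeR's quasi-likelihood test, adjusted over all tested genes, was under 0.05. The median log2 fold change of the 10 was -0.13, beside 0.01 for all tested genes. Each of the 6 passed in the same direction in all 33 alternative analyses. In this comparison 17 of 20 tested acute phase genes and 11 of 13 macrophage genes also rose. Without ORX_Nx 4 and ORX_Nx 5, the pair highest in acute phase genes, all 6 transporters still passed. The acute phase sums of the remaining ORX_Nx livers, 11182 to 12286 CPM, still lay above those of Sham_Nx, 9785 to 10954 CPM. The part of acute phase and macrophage genes in these results was not tested.

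Slco1a1 (ENSMUSG00000041698), a bile salt and steroid conjugate carrier known as a male-predominant transporter of mouse liver, fell furthest. Its level was 476, 407, 331 and 325 CPM in the Sham_Nx livers and 12.1, 9.48, 24.9, 27.9 and 5.81 CPM in the ORX_Nx livers. Every ORX_Nx liver lay more than 10-fold below every Sham_Nx liver. The log2 fold change was -4.58 ± 0.63 (SE), 23.9-fold lower, with an adjusted p of 1.52e-04 by edgeR.

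Slco1a4 (ENSMUSG00000030237), which transports digoxin among other substrates and lies beside Slco1a1 on chromosome 6, moved the other way. Sham_Nx livers held 21.2, 60.8, 39.1 and 33.6 CPM and ORX_Nx livers 164, 180.0, 227, 147 and 234 CPM. All 5 orchiectomized livers were above all 4 sham livers. The log2 fold change was 2.30 ± 0.23 (SE), 4.92-fold higher (edgeR adjusted p = 6.17e-06).

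The ratio of Slco1a1 to Slco1a4, each per kilobase, had a median of 6.42 in Sham_Nx (4.74 to 15.9), 2.46 in Sham_IH (1.46 to 4.00), 0.0522 in ORX_Nx (0.0176 to 0.134) and 0.144 in ORX_IH (0.0341 to 0.432). Slco1a1 was therefore the more abundant of the pair in every sham liver and the less abundant in every orchiectomized liver. The 2 levels added to a mean ± SD of 128 ± 20.3 CPM per kilobase over the Sham_Nx livers and 82.9 ± 15.2 over the ORX_Nx livers.

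**Figure D2:**
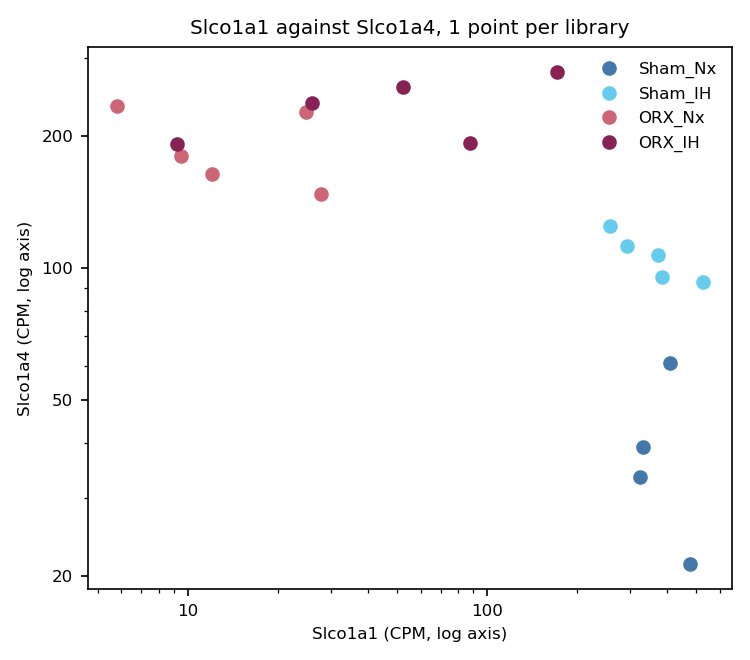
Slco1a1 (x axis) against Slco1a4 (y axis) in CPM, both on log axes, with 1 point per library coloured by group. Sham livers lie to the right, at 258 CPM of Slco1a1 or more, and orchiectomized livers to the upper left, at 171 CPM or less.

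The other Slco genes did not pass the test after orchiectomy in normoxia. Slco1b2 (ENSMUSG00000030236), the main bilirubin and bile salt carrier of this family in mouse hepatocytes, averaged 1109 ± 77.1 CPM (SD, n = 4) in Sham_Nx and 1036 ± 245 (SD, n = 5) in ORX_Nx. ORX_Nx 5, at 618 CPM, was far below the other 4 livers of its group, which held 1060.4 to 1237 CPM. The fold of Slco1b2 was 0.934, with a 95% interval from 0.772 to 1.13 (edgeR adjusted p = 0.681). Slco2a1 (ENSMUSG00000032548), the prostaglandin transporter, averaged 116 ± 9.61 CPM in Sham_Nx and 103 ± 10.3 in ORX_Nx, with an interval of the fold from 0.778 to 1.01. Slco2b1 (ENSMUSG00000030737), a carrier of steroid sulfates, averaged 161 ± 9.97 and 157 ± 12.3 CPM, with an interval from 0.885 to 1.07. The intervals of these 3 genes leave room for changes of that size, and the missed threshold does not show that the groups were equal.

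Slc22a7 (ENSMUSG00000067144), an organic anion transporter of hepatocytes that carries prostaglandins and nucleotides, fell after orchiectomy in normoxia. Sham_Nx livers had 16.5, 10.8, 13.2 and 11.5 CPM and ORX_Nx livers 3.799, 5.47, 2.90, 4.92 and 2.23 CPM. Each ORX_Nx liver was below each Sham_Nx liver. This was a log2 fold change of -1.74 ± 0.35 (SE), or 3.34-fold lower (edgeR adjusted p = 0.00379).

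Within the row of Slc22 genes on chromosome 19, 2 rose from near the detection limit, 1 fell and 1 did not pass. Slc22a26 (ENSMUSG00000053303) had 0.446, 0.386, 0.517 and 0.381 CPM in Sham_Nx, from 21 to 32 estimated counts a library, and 122.5, 111, 59.9, 89.6 and 56.3 CPM in ORX_Nx. Its log2 fold change of 7.66 ± 0.40 (SE), 202-fold higher with a 95% interval from 118 to 346, was the largest of the 10 transporters (edgeR adjusted p = 1.74e-09). Slc22a27 (ENSMUSG00000067656) had 0.264, 0.349, 0.210 and 0.969 CPM in Sham_Nx and 23.0, 19.0, 11.4, 9.88 and 7.32 CPM in ORX_Nx. It was 31.3-fold higher, a log2 fold change of 4.97 ± 0.53 (SE) with an edgeR adjusted p of 1.07e-05, and no orchiectomized liver came near the sham livers.

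Slc22a28 (ENSMUSG00000063590) fell. It had 15.7, 11.1, 9.26 and 15.1 CPM in Sham_Nx and 1.84, 2.38, 1.90, 2.39 and 3.04 CPM in ORX_Nx. The 5 orchiectomized livers sat closely together below the sham livers. On the log2 scale the fold change was -2.48 ± 0.35 (SE), 5.56-fold lower (edgeR adjusted p = 2.13e-04). Slc22a30 (ENSMUSG00000052562), whose upstream sequence above is nearly that of Slc22a28, had 231, 223, 192 and 253 CPM in Sham_Nx and 207, 212, 208, 139.4 and 160.0 CPM in ORX_Nx. These groups overlapped, and the log2 fold change of -0.28 ± 0.14 (SE) did not pass (edgeR adjusted p = 0.196, 95% interval of the fold 0.680 to 1.00).

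The transcripts of these genes share sequence, so their counts depend on how kallisto divided ambiguous reads. Of all stretches of 31 bases in GENCODE M21 transcripts, 68.2% of those of Slc22a28 also occurred in another gene, 67.0% in Slc22a30, and 46.9% of those of Slc22a27, 41.8% in Slc22a29. The shares were 42.9% for Slc22a30 and 11.9% for Slc22a26 (11.5% in AC115715.1), and at most 5.03% for each Slco gene and Slc22a7. Rows were therefore added up, a choice made after seeing the data. When the counts of Slc22a28 and Slc22a30 formed 1 row, the log2 fold change was -0.34 ± 0.14 (SE) and no longer passed (edgeR adjusted p = 0.119), as Slc22a30 supplied most of the counts. The summed row of Slc22a26, Slc22a27 and Slc22a29 had a log2 fold change of 6.57 ± 0.41 (SE, edgeR adjusted p = 5.35e-08). Slc22a26 supplied most of it, with a mean of 87.9 CPM in ORX_Nx beside 14.1 for Slc22a27 and 1.08 for Slc22a29. This row therefore cannot show how reads were divided between Slc22a27 and Slc22a29, and it leaves out AC115715.1. The level of Slc22a28 on its own is uncertain, as most of its sequence is shared.

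Added together, Slc22a26, Slc22a27, Slc22a28 and Slc22a30 gave 238 ± 28.1 CPM over the 4 Sham_Nx livers and 276 ± 28.7 CPM over the 5 Sham_IH livers (mean ± SD). After orchiectomy the sum was 290 ± 58.4 CPM in normoxia and 293 ± 56.4 CPM under hypoxia (SD, n = 5 each). The groups overlapped in each comparison. The makeup of the sum differed: the share of Slc22a30 was 93.4% or more in each sham liver and 79.9% or less in each orchiectomized liver. Slc22a30 made up 94.3% ± 0.836 of it (SD, n = 4) in Sham_Nx and 64.4% ± 7.37 (SD, n = 5) in ORX_Nx. Slc22a26 made up 0.185% ± 0.0496 and 30.03% ± 6.69 of it, and Slc22a28 5.32% ± 0.833 and 0.844% ± 0.327. In ORX_IH the shares were 74.3% ± 5.50 for Slc22a30, 20.4% ± 5.65 for Slc22a26, 3.82% ± 0.767 for Slc22a27 and 1.52% ± 0.693 for Slc22a28 (SD, n = 5).

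**Figure D3:**
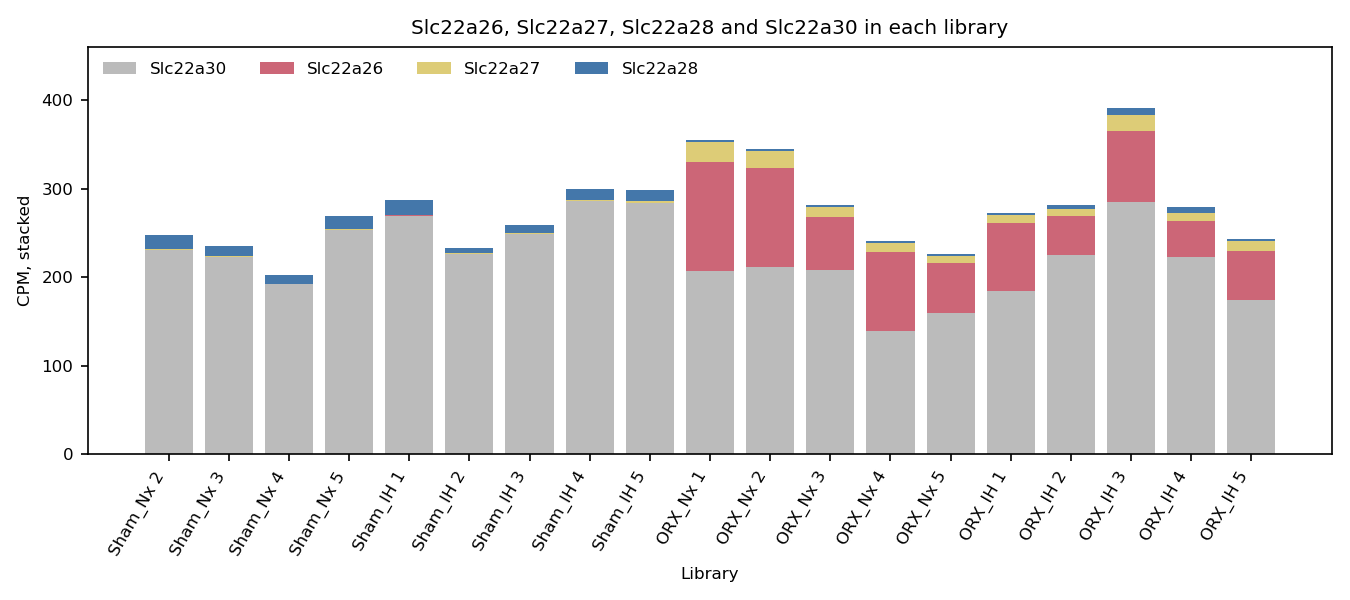
Stacked CPM of Slc22a30, Slc22a26, Slc22a27 and Slc22a28 (y axis, from 0) in each library (x axis, in group order). The whole bar ranges from 202 CPM in Sham_Nx 4 to 391 CPM in ORX_IH 3, and the Slc22a26 part is visible in orchiectomized libraries and not in sham libraries.

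Orchiectomy under intermittent hypoxia, the comparison of ORX_IH with Sham_IH, asks the same question in mice that all had hypoxia, with no sample shared with the comparison in normoxia. The same 3 genes rose, Slc22a26, Slc22a27 and Slco1a4, and 2 of the 3 fell, Slco1a1 and Slc22a28. Among all tested genes 2.88% passed in this comparison, 1.31% upward and 1.57% downward (211 and 254 genes, but 830 and 141 without scaling factors and 274 and 205 with upper quartile scaling). The groups did not overlap for 4 of the 10 transporters, against 5.85% of all tested genes. The median log2 fold change was -0.17 for the transporters and -0.0043 for all genes. Skeletal muscle genes moved in the same comparison, with 13 of 15 higher in ORX_IH. A fit without the 4 libraries highest in them, which leaves 3 ORX_IH libraries, still called the 3 transporters that rose, and the 2 that fell kept their direction without passing: the log2 fold change of Slco1a1 went from -2.40 to -1.95 and that of Slc22a28 from -1.32 to -1.04. That fit called 107 of 16697 genes, beside 465 of 16164 in the reported analysis. The part of the muscle genes in these results was not tested.

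Slc22a26 had 0.180, 0.223, 0.193, 0.284 and 0.764 CPM in Sham_IH and 77.1, 44.4, 80.7, 39.8 and 55.9 CPM in ORX_IH. Its log2 fold change was 7.39 ± 0.37 (SE), 168-fold higher (edgeR adjusted p = 8.82e-10). Slc22a27 had 0.503, 0.670, 0.138, 0.479 and 1.24 CPM in Sham_IH and 9.63, 8.20, 17.5, 9.60 and 11.6 CPM in ORX_IH, a log2 fold change of 4.16 ± 0.47 (SE, edgeR adjusted p = 3.25e-05). For both genes the lowest orchiectomized liver was well above the highest sham liver.

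Slco1a4 had 95.6, 125, 112, 92.9 and 107 CPM in Sham_IH and 191, 258, 192, 279.7 and 237 CPM in ORX_IH. The groups were apart, and the log2 fold change was 1.121 ± 0.205 (SE), 2.17-fold higher (edgeR adjusted p = 0.00470). Slco1a1 had 385, 258, 294, 526 and 373 CPM in Sham_IH and 9.23, 52.4, 87.6, 171 and 26.0 CPM in ORX_IH. The ORX_IH livers spread over more than 10-fold, yet each was below each Sham_IH liver. The log2 fold change was -2.40 ± 0.56 (SE), 5.29-fold lower (edgeR adjusted p = 0.0239). This call was lost without the 4 libraries highest in muscle genes (log2 fold change -1.95), without the pancreas-high set (-2.12), when the fit kept library numbers 1 to 16 (-2.19), and without Sham_IH 4 (-2.23), ORX_IH 2 (-2.32) or ORX_IH 5 (-2.20). Among all genes 107, 158, 342, 258, 260 and 392 passed in these fits, in that order, beside 465 in the reported analysis.

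Slc22a28 had 16.6, 6.40, 9.82, 12.5 and 13.1 CPM in Sham_IH and 2.28, 4.05, 8.02, 6.66 and 2.14 CPM in ORX_IH, and the groups overlapped. Its log2 fold change was -1.32 ± 0.32 (SE), 2.50-fold lower (edgeR adjusted p = 0.0329), and 12 of 33 alternatives ended the call, among them leaving out any one of Sham_IH 1, 3, 4 and 5 and ORX_IH 1, 2 and 5, the 4 muscle-high libraries (-1.04 ± 0.36, adjusted p = 0.315) or the pancreas-high set (-1.10 ± 0.34, adjusted p = 0.183). Slc22a7 had 13.6, 12.6, 14.2, 31.4 and 19.7 CPM in Sham_IH and 5.51, 8.84, 8.29, 16.4 and 4.52 CPM in ORX_IH. ORX_IH 4 lay among the sham livers, and the log2 fold change of -1.07 ± 0.32 (SE) did not pass (edgeR adjusted p = 0.0835). It passed with DESeq2 (-1.06, adjusted p = 0.0169) and without ORX_IH 4 (-1.43 ± 0.30, edgeR adjusted p = 0.0112). Slco1b2, Slco2a1, Slco2b1 and Slc22a30 did not pass, with log2 fold changes between -0.27 and 0.02.

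**Figure D4:**
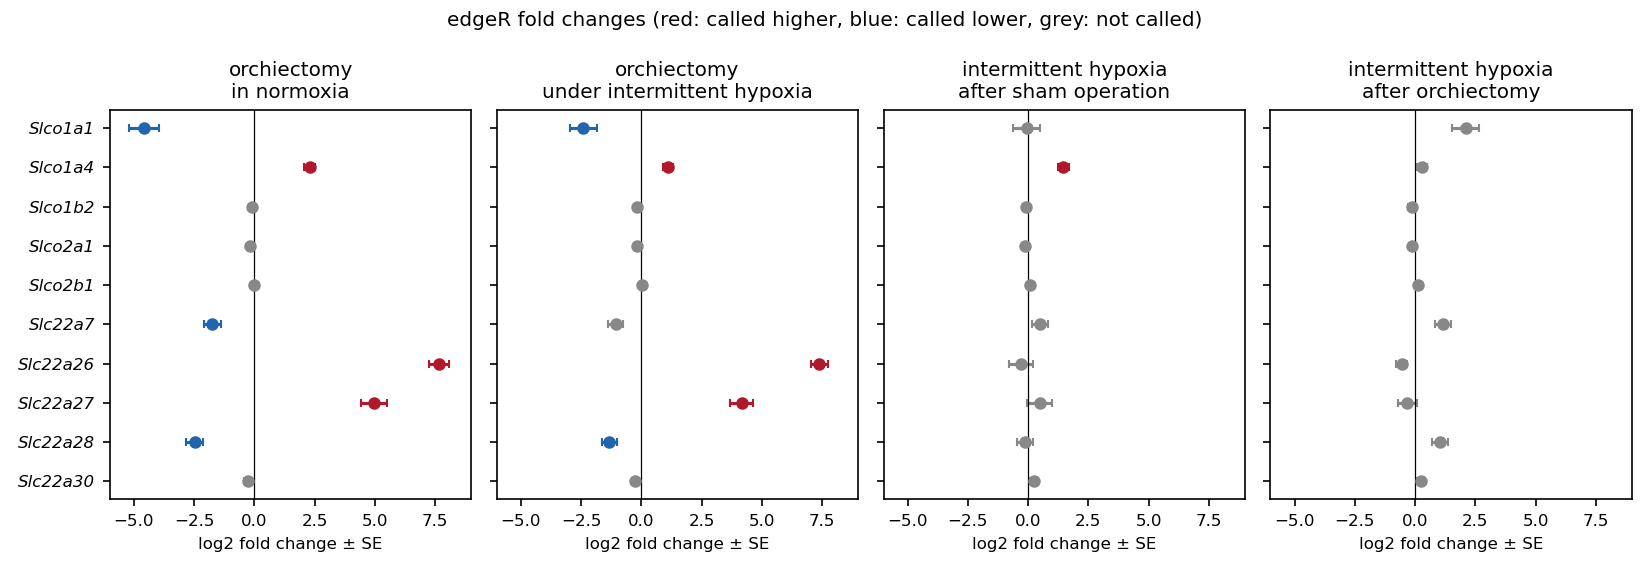
The edgeR log2 fold change (x axis, bars ± SE) of each transporter in the 4 comparisons between pairs of groups, in red or blue where it passed the test and grey where it did not. The panels hold 6, 5, 1 and 0 passing genes from left to right, and Slc22a26 reaches 7.66 and 7.39 in the orchiectomy panels.

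Intermittent hypoxia after sham operation, Sham_IH against Sham_Nx, shows the response with testes in place. It shares the Sham_Nx livers with the comparison of orchiectomy in normoxia and the Sham_IH livers with that of orchiectomy under hypoxia. Slco1a4 alone among the 10 passed. Over all tested genes 0.303% passed, 0.099% upward, and 8.51% had groups that did not overlap. With 21.2 to 60.8 CPM in Sham_Nx and 92.9 to 125 CPM in Sham_IH, its groups did not overlap. The log2 fold change was 1.46 ± 0.22 (SE), 2.75-fold higher with a 95% interval from 2.03 to 3.74 (edgeR adjusted p = 0.0147). The call ended without Sham_Nx 2 (log2 fold change 1.26, edgeR adjusted p = 0.0541), without Sham_Nx 5 (1.40, adjusted p = 0.0602), when the fit kept library numbers 1 to 16 (1.39, adjusted p = 0.0746), and without the pancreas-high set (1.40, adjusted p = 0.154). Among all genes 1, 1, 9 and 0 passed in these fits, in that order, beside 49 in the reported analysis. Slco1a1, the neighbour of Slco1a4, averaged 385 ± 71.3 CPM (SD, n = 4) in Sham_Nx and 367 ± 103 (SD, n = 5) in Sham_IH. The log2 fold changes of the remaining transporters lay between -0.29 and 0.50.

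Intermittent hypoxia after orchiectomy, ORX_IH against ORX_Nx, asks for the response without testes. It shares the ORX_Nx livers with orchiectomy in normoxia and the ORX_IH livers with orchiectomy under hypoxia. None of the 10 passed with edgeR or with limma-voom, where 4 had an unadjusted p under 0.05 in each. Of all 16164 tested genes, 2758 had such a p with edgeR and 2483 with limma-voom. With edgeR 0.0742% of all tested genes passed, 0.0186% upward and 0.0557% downward. With limma, fitted to the deposited log2 values, 3 had an unadjusted p under 0.05, beside 2554 of 16125 genes, and none passed. The groups overlapped for all 10, while 2.3% of all tested genes had groups that did not. Slco1a1 averaged 16.0 ± 9.79 CPM in ORX_Nx and 69.2 ± 64.1 in ORX_IH (SD, n = 5 each), a log2 fold change of 2.10 ± 0.56 (SE, edgeR adjusted p = 0.0786). Slc22a7 averaged 3.86 ± 1.35 and 8.70 ± 4.65 CPM, a log2 fold change of 1.17 ± 0.33 (SE, edgeR adjusted p = 0.0940). Slc22a28 averaged 2.31 ± 0.485 and 4.63 ± 2.63 CPM, a log2 fold change of 1.02 ± 0.33 (SE, edgeR adjusted p = 0.125). With DESeq2 these 3 genes passed, in a fit that called 712 of all genes against 12 with edgeR. Within ORX_IH the 3 were highest in ORX_IH 3 or ORX_IH 4.

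Whether hypoxia acted differently after orchiectomy was tested as an interaction, the difference between the log2 fold changes of hypoxia after orchiectomy and after sham operation. None of the 10 passed with edgeR, nor did any of the 16164 genes (0% of them), of which 1025 had an unadjusted p under 0.05. An unadjusted p under 0.05 was reached by 3 transporters with edgeR and with DESeq2. With DESeq2 1107 of all genes reached it, and DESeq2 called 1 of the transporters and 63 genes in all. With limma-voom and limma on the log2 values, 2 and 3 transporters reached an unadjusted p under 0.05, beside 841 and 982 of all genes, and no gene passed. Slco1a4 had the value -1.18 ± 0.30 (SE, edgeR adjusted p = 0.289, DESeq2 adjusted p = 0.0211), Slco1a1 2.17 ± 0.78 (SE, edgeR adjusted p = 0.708) and Slc22a28 1.15 ± 0.47 (SE, edgeR adjusted p = 0.739). The responses of Slco1a4 were 1.46 after sham operation and 0.28 after orchiectomy on the log2 scale, and those of Slco1a1 were -0.07 and 2.10.

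The authors' deposited table gives 1 F statistic, p-value and q-value per gene, with no direction and without naming the groups behind it. In the authors' deposited table the q-value was 5.11e-09 for Slc22a26, 4.84e-05 for Slc22a27, 5.68e-05 for Slco1a4, 8.90e-04 for Slco1a1, 0.00266 for Slc22a28 and 0.00779 for Slc22a7. It was 0.195 for Slc22a30, 0.334 for Slco2a1 and 0.682 for Slco1b2 and for Slco2b1 in the authors' deposited table, where 1450 genes had a q-value under 0.05.

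For each transporter that passed in an orchiectomy comparison, the genes with the most similar log2 CPM over the 19 libraries were ranked by Pearson's r. These libraries share the group differences, depth and RNA preparation, so r is a description. The genes nearest to Slc22a26 were Cyp2a4 (r = 0.979), Cyp2b13 (0.9751) and Gm14496 (0.969), and those nearest to Slc22a27 were Cyp2a22 (0.9752), Cyp2a4 (0.971) and Gm14496 (0.965). Cyp2a4 encodes a steroid hydroxylase known from female mouse liver. Slco1a1 was nearest to Cyp2d9 (0.964), a male-predominant cytochrome P450, Serpine2 (0.963) and Ces3a (0.963). Slc22a7 was nearest to Cyp2d41-ps (0.937), Srd5a1 (0.922), a steroid reductase, and Ces3a (0.919), and Slc22a28 to Mup-ps19 (0.937), Serpina4-ps1 (0.929) and Srd5a1 (0.929). Slco1a4 was nearest to Gypc (0.936), Ppl (0.916) and Rdh16f2 (0.912).

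After the group means were taken out, 0 of the 3 nearest genes were shared with the first ranking for any of the 6 transporters. Slco1a1 then lay nearest to Ago1 (r = 0.896), Epb41l5 (0.885) and Wapl (0.853), Slco1a4 to Atp1b1 (0.907), Rassf5 (0.809) and Slc25a3 (0.796), and Slc22a7 to Ift46 (0.914), Rarres1 (0.904) and Lmf1 (0.890). Slc22a26 lay nearest to Endod1 (0.821), Gm45234 (0.818) and Nudt14 (0.767), Slc22a27 to Zfp942 (0.8292), 9030619P08Rik (0.812) and Gm12481 (0.807), and Slc22a28 to Cpsf6 (0.861), Sgsm2 (0.814) and Tex30 (0.798). Among pairs of the transporters themselves, the highest correlations of deviations from the group means over 19 libraries were as follows. They were r = 0.667 for Slco1a1 with Slc22a7, 0.588 for Slco1a1 with Slc22a28, 0.577 for Slc22a28 with Slc22a30 and 0.558 for Slc22a26 with Slc22a27. The most negative was r = -0.569, for Slco2a1 with Slc22a7. Slc22a28 and Slc22a30 share sequence, as given above.

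Of 35 further Slco and Slc22 genes, 30 were in the table and 14 had enough reads. Of these 14, 7.14% passed after orchiectomy in normoxia and 14.3% under hypoxia, beside 14.3% and 2.88% of all tested genes, and 7.14% passed for hypoxia after sham operation, beside 0.303%. Slc22a29, the gene between Slc22a28 and Slc22a30, was the 1 gene that rose after orchiectomy in normoxia, from 0.203 ± 0.0921 CPM (SD, n = 4) to 1.08 ± 0.401 (SD, n = 5), a log2 fold change of 2.42 ± 0.49 (SE, edgeR adjusted p = 0.00456). It rose under hypoxia too (2.27 ± 0.49, edgeR adjusted p = 0.0151), and its counts share sequence with Slc22a27. Slc22a18 fell slightly after orchiectomy under hypoxia (log2 fold change -0.25 ± 0.07, edgeR adjusted p = 0.0427), a call that 19 of 33 alternatives ended, leaving out any one of Sham_Nx 3 to 5, Sham_IH 1 to 5 and ORX_IH 1, 3 and 5 among them. Slc22a5, the carnitine transporter, fell with hypoxia after sham operation from 67.9 ± 10.7 CPM (SD, n = 4) to 38.2 ± 4.42 (SD, n = 5), a log2 fold change of -0.83 ± 0.17 (SE, edgeR adjusted p = 0.0388). That call was lost in 16 of 33 alternatives with the direction kept (log2 fold changes from -0.93 to -0.73), among them library numbers 1 to 16 (-0.93, edgeR adjusted p = 0.0746), the fit without the muscle-high libraries (-0.88, adjusted p = 0.315) and that without the pancreas-high set (-0.92, adjusted p = 0.159). Among all genes 9, 2 and 0 passed in these 3 fits, in that order. Leaving out any one of the 9 sham livers ended the call of Slc22a5 too. These 3 genes were the ones that passed in at least 1 comparison.

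Among 27 other liver transporters of bile salts, organic anions and drugs, 7 rose and 2 fell after orchiectomy in normoxia, and 3 rose and 2 fell under hypoxia. These are 33.3% and 18.5% of the list, beside 14.3% and 2.88% of all tested genes. Without the 4 muscle-high libraries 1 rose and 1 fell in each comparison, and without the pancreas-high set 5 rose and 2 fell in normoxia and 0 rose and 1 fell under hypoxia. The calls over all genes dropped as well. Without the muscle-high libraries, which leaves Sham_Nx 4 and Sham_Nx 5 in that group, 422 of 16697 genes passed in normoxia and 107 under hypoxia. Without the pancreas-high set 1101 of 16216 genes passed in normoxia and 158 under hypoxia. Abcb1a, a drug efflux pump, rose in both (log2 fold changes 1.69 ± 0.25 and 1.03 ± 0.23, edgeR adjusted p = 3.07e-04 and 0.0177), as did Slc17a4, a phosphate and organic anion carrier (1.09 ± 0.20 and 0.84 ± 0.19, edgeR adjusted p = 0.00254 and 0.0205). Abcc4, a basolateral efflux pump, rose in normoxia (1.19 ± 0.23, edgeR adjusted p = 0.00299). Abcg2, an efflux pump of the canalicular membrane, fell in both (-1.02 ± 0.12 and -0.67 ± 0.11, edgeR adjusted p = 2.19e-05 and 0.00180), from 73.4 ± 4.76 CPM (SD, n = 4) in Sham_Nx to 36.2 ± 2.69 (SD, n = 5) in ORX_Nx. Under hypoxia, leaving out Sham_IH 3 or 5 ended the call of Abcb1a (0.95 in each case), and leaving out Sham_IH 1 or 3 that of Slc17a4 (0.81 and 0.79). The median log2 fold change of the list was 0.15 in normoxia and -0.0085 under hypoxia.

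Of 29 transcription factors and receptors that bear on hepatic transporters or sex-biased genes, 4 rose and 1 fell after orchiectomy in normoxia, 17.2% of the list beside 14.3% of all tested genes. Cux2, known as a female-biased factor, rose from 2.76 ± 0.481 CPM (SD, n = 4) to 7.96 ± 1.84 (SD, n = 5), with a log2 fold change of 1.52 ± 0.34 (SE, edgeR adjusted p = 0.00840). Prlr, the prolactin receptor (1.01 ± 0.14, edgeR adjusted p = 2.34e-04), and Tox (0.85 ± 0.25, edgeR adjusted p = 0.0326) rose as well. Under hypoxia 3 rose and 1 fell after orchiectomy, with Cux2 at 1.62 ± 0.31 (edgeR adjusted p = 0.00675) and Tox at 1.07 ± 0.24 (edgeR adjusted p = 0.0190). These 4 are 13.8% of the list, beside 2.88% of all tested genes. The gene that fell was Bcl6, a male-biased repressor, from 72.5 ± 34.3 to 9.31 ± 0.503 CPM (SD, n = 5 each), a log2 fold change of -2.96 ± 0.56 (SE, edgeR adjusted p = 0.00593). In normoxia Bcl6 did not pass, at 43.8 ± 32.0 CPM in Sham_Nx (SD, n = 4) and 34.6 ± 27.8 in ORX_Nx (SD, n = 5). The call of Tox ended in normoxia without any one of Sham_Nx 2, 4 and 5 and ORX_Nx 1, 2 and 4 (log2 fold changes from 0.68 to 0.88), and under hypoxia without Sham_IH 3 (0.99) or Sham_IH 4 (0.98). Without the 4 muscle-high libraries 1 factor rose and 0 fell in normoxia and none passed under hypoxia, where the log2 fold changes were 1.42 for Cux2, 1.14 for Tox and -2.91 for Bcl6 (edgeR adjusted p = 0.137, 0.0659 and 0.0676). Without the pancreas-high set 3 rose and 1 fell in normoxia, and 1 rose and 1 fell under hypoxia. Among all genes 422 of 16697 in normoxia and 107 under hypoxia passed without the muscle-high libraries. Without the pancreas-high set 1101 of 16216 and 158 did. Of known sex-biased liver genes, all 15 male-biased genes of a list fell in both orchiectomy comparisons. Of 15 tested female-biased genes 11 rose in normoxia and 12 under hypoxia. Among all tested genes 6.46% fell and 7.88% rose in normoxia, and 1.57% fell and 1.31% rose under hypoxia. Both lists were chosen with earlier results of these data known, so these counts are a description only.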

How the data were processed

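Poly(A) RNA of mouse livers was sequenced, and 19 libraries of the 20 samples in the labels were analysed. Per the submitters' processing notes, the reads passed through bcl2fastq 2.20 and fastp 0.23.2, were checked by FastQC 0.11.9 with MultiQC 1.12, and were assigned to transcripts by kallisto 0.46.1 (build GRCm39). The authors deposited estimated counts per gene, of which 27.5% were not whole, so they were rounded. kallisto divides a read that matches several genes among them, which touches the Slc22 genes. The authors also deposited a log2 table, whose normalization is not stated beyond its name (TMM) and which was used as it is with limma 3.58.1 as an alternative, and p-values and q-values with an F score per gene. The F score, p-value and q-value were deposited by the authors and are quoted as theirs.

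Counts were filtered with filterByExpr (minimum count 10), scaled by TMM and fitted with edgeR 4.0.16 (R 4.3.3) in 1 quasi-likelihood model of the 4 groups, and p-values were Benjamini-Hochberg adjusted over all 16164 tested genes. Intervals of the fold are nominally 95%, from the standard error and the normal distribution, and are somewhat narrower than edgeR's test implies. For Slc22a30 after orchiectomy under hypoxia the interval was 0.691 to 0.995, while the unadjusted edgeR p was 0.0594. Alternatives used DESeq2 1.42.0, limma-voom, other scalings, filters and subsets of libraries. The procedure was tested on simulated data. Log2 CPM used a prior count of 1. Libraries of 1 group differed by far more than sampling noise (chi-square per degree of freedom 20.7 to 198).

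The members and lists were chosen with earlier results of these data known. All 10 members are named in each comparison, and at most the 3 genes of a list that passed with the largest change, plus the 3 most similar genes for each member that passed after orchiectomy. Slc22a5, Slc22a29 and Slc22a18 came by that rule. Replicates are numbered mice in the labels. The Sham_Nx group's mouse 1 was not analysed here.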

Additional observations from a re-analysis of the deposited data

Results flagged for a closer look

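In 40 tests of a group of 4 or 5 livers for 1 library far from the others, 2 values stood out, and chance alone marks about 1 in 20 such groups. Slco1b2 was at 618 CPM in ORX_Nx 5, against 1060.4 to 1237 CPM in the other ORX_Nx livers. The same library had the lowest sum of hepatocyte genes (84120 CPM) and of pericentral genes (5365 CPM), and the part of these in the value was not tested. Slc22a26 was at 0.764 CPM in Sham_IH 5, against 0.180 to 0.284 CPM in the other Sham_IH livers. That library had the highest sum of pancreatic acinar genes (1569 CPM) and the highest Slc22a27 of its group (1.24 CPM), and their part in the value was not tested. Without Sham_IH 5 or ORX_Nx 5 no orchiectomy call on Slc22a26 was lost.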

How the results depend on the processing

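After orchiectomy in normoxia, 6 transporters passed in each of 33 alternatives. After orchiectomy under hypoxia the count of 5 became 3 with library numbers 1 to 16 only, without the 4 muscle-high libraries and without the 3 pancreas-high libraries, and ranged from 3 to 6 when 1 library was left out. Over all genes the calls were 342, 107 and 158 in these 3 fits, beside 465 in the reported analysis. For hypoxia after sham operation the count of 1 became 0 with library numbers 1 to 16 only and without the 3 pancreatic libraries, and was 0 to 1 with 1 library left out. In these 2 fits 9 of 16242 and 0 of 16216 genes passed, beside 49 of 16164 in the reported analysis. With DESeq2 the count of transporters rose from 0 to 3 for hypoxia after orchiectomy and from 0 to 1 for the interaction. The cause was not tested.

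Whether the mouse number pairs libraries was left undecided. Of 27 same-number pairs, 5 had deviations correlated over 0.1 (median r = 0.00369, highest 0.395), and 8 of 19 libraries correlated best with their own number. No chance level was computed for these counts. With the mouse number as a replicate block, Slc22a7 passed after orchiectomy under hypoxia (-1.13, edgeR adjusted p = 0.0263) and Slc22a28 did not (-1.36, edgeR adjusted p = 0.0724). In that fit Slco1a1 stood at 0.0343 for hypoxia after sham operation. Leaving out scaling factors shifted the median of all genes to 0.14 in normoxia and 0.13 under hypoxia (log2). It changed no call on the 10 transporters, but over all genes the calls went from 2319 to 2734 in normoxia and from 465 to 971 under hypoxia.

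The log2 values that changed sign did not pass in either analysis. After orchiectomy in normoxia, Slco2b1 was 0.000496 with upper quartile scaling, 0.0889 without scaling and 0.0135 without ORX_Nx 4 and ORX_Nx 5, and Slco1b2 was 0.0133 without scaling, 0.0629 with library numbers 1 to 16 and 0.0651 without that pair. After orchiectomy under hypoxia, Slco2b1 was -0.0487 with library numbers 1 to 16 and -0.0278 without the pancreatic libraries. For hypoxia after sham operation, Slco1a1 was 0.154 without the muscle libraries. For the interaction, Slco2a1 was 0.0100 with DESeq2, 0.0225 with limma on the deposited log2 table, 0.00976 with size factors, 0.0204 without a filter, 0.00504 with at least 1 CPM in 4 libraries, 0.0497 with library numbers 1 to 16, 0.0120 without the pancreatic libraries and 0.0809 without ORX_Nx 4 and ORX_Nx 5. Slc22a26, -0.27 in the reported analysis, was 0.0618 on the log2 table, 0.333 with library numbers 1 to 16 and 0.307 without the pancreatic libraries, Slco1b2 0.00142 without the muscle libraries, and Slc22a30 -0.156 without ORX_Nx 4 and ORX_Nx 5.

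With 1 library left out, values ran in normoxia from -0.170 to 0.0301 for Slco1b2 and from -0.0800 to 0.00169 for Slco2b1, under hypoxia from -0.0288 to 0.0504 for Slco2b1, and for hypoxia after sham operation from -0.242 to 0.0494 for Slco1a1 and from -0.290 to 0.0232 for Slc22a28. Interaction values ran from -0.190 to 0.00243 for Slco1b2, from -0.0499 to 0.0642 for Slco2a1, from -0.412 to 0.358 for Slc22a26 and from -0.0909 to 0.0793 for Slc22a30. The log2 difference of the summed Slc22 genes ran from -0.0293 to 0.141 for orchiectomy under hypoxia and from -0.0842 to 0.103 for hypoxia after orchiectomy.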
